A study of Mus musculus with 6 samples.

Results

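The IL-33 receptor and the relay that carries its signal were examined through 10 genes, chosen by name: Il1rl1, which encodes ST2, and Il1rap for the receptor chains, and Myd88, Irak1, Irak2, Irak4, Traf6, Map3k7, Tab2 and Tollip for the proteins that act behind them. These were 10 of the 17831 genes in the deposited table, and all 10 were among the 13623 genes that passed the filter on low counts. Bulk RNAseq was available for 3 WT and 3 SIRPα KO libraries of group 2 innate lymphoid cells (ILC2s) sorted from mouse lung. WT mice were of the CB57BL/6 background as the labels spell it, and SIRPα KO mice were of the SIRPalphatm1Ynliu/J line, in which Sirpa, the gene of an inhibitory receptor for CD47, is mutated in every cell of the animal. Mice of both groups were 6 to 8 weeks old and were given 0.5 μg of rmIL-33 intranasally on 3 days, so that no library comes from cells without IL-33. On day 4 CD45+ lineage- CD127+ ST2+ cells were sorted and then cultured with rmIL-2 and rmIL-7, each at 10 ng/mL, for 18 h or 24 h, since both times are given. How many mice stand behind a library is not given in the sources used here. ST2 was part of the gate in both groups, so the level of Il1rl1 was measured only in cells already chosen for carrying its protein on the surface.

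IL-33 is an alarmin released by damaged epithelium, and ILC2s are among the cells that answer it most strongly in the lung. It binds ST2, which then recruits the IL-1 receptor accessory protein, and the paired intracellular domains gather MyD88 with the kinases IRAK4, IRAK1 and IRAK2 into a complex. That complex engages the ubiquitin ligase TRAF6, which acts through TAB2 to switch on the kinase TAK1, the product of Map3k7, and from there NF-κB and the MAP kinases. Tollip binds IRAK1 and restrains the relay.

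Il1rl1 is the member in which these libraries held the most reads, and RefSeq gives it 2 starts. The windows around both starts, from 250 bases before to 50 after each one, are shown because GATA3, the defining transcription factor of ILC2s, recognises short GATA motifs. Capitals mark the hexamer AGATAA or its forms with another last letter (AGATAG), another first letter (TGATAA) or both (TGATAG), on either strand, with overlapping matches counted singly. Both windows are on the plus strand of chromosome 1 in GRCm38.p6, whose primary chromosomes mm10 shares, the first at chr1:40429320-40429619 and the second at chr1:40439379-40439678.
Il1rl1 upstream start: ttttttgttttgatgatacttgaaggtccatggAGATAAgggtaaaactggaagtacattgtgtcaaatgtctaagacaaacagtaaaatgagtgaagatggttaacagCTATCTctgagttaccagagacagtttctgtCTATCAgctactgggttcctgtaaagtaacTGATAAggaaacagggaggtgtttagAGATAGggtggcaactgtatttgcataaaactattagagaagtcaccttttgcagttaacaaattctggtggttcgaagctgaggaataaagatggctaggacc
Il1rl1 downstream start: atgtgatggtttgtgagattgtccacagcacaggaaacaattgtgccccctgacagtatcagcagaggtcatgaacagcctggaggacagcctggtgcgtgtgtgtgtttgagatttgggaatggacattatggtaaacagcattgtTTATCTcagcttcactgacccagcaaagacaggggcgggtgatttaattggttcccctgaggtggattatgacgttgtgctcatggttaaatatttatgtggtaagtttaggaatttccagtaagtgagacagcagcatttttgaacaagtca
The upstream window held 5 such matches and the downstream window held 1. Among the 32851 RefSeq promoter windows of the same length, 29.8% held at least 1 match and 0.0548%, or 18 windows, held at least 5. Of the windows of the other 9 members, only 1 held a match, at the second start of Tab2. G and C made up 38.7% of the upstream Il1rl1 window and of that Tab2 window, and 44.7% of the downstream Il1rl1 window. In the remaining member windows they made up 54.0% to 78.0%. The share over all promoter windows was not matched for base composition. A match is a description of letters, and binding was not measured here.

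Before the genes are compared, 3 facts about the libraries bear on all of them. Libraries held 13980491 to 19051504 reads on genes. In the labels, WT replicates 1 and 2 carry related codes (37 and 37V1), as do SIRPα KO replicates 2 and 3 (44 and 44V1), and nothing says whether such a pair came from separate animals, so p-values measure the spread between libraries. The squared difference between the counts of such a pair, divided by its counting variance, had a median over genes of 6.56 in WT and 3.09 in SIRPα KO, beside 18.5 and 19.7 for the other WT pairs and 2.82 and 3.27 for the other SIRPα KO pairs. That excess does not show separate samples, and the libraries were kept as the replicates the labels name. WT replicate 3 stood apart. Against the mean of WT replicates 1 and 2, its log2 CPM (counts scaled for library size by TMM) differed by 0.54 at the median in the decile of genes with the shortest transcripts and by -0.49 in the decile with the longest. Fold changes between SIRPα KO and WT followed transcript length too, from a median of -0.55 in the shortest decile to 0.47 in the longest, and from -0.34 to 0.34 without WT replicate 3. Each result below is therefore given, where it matters, without that library and with an offset for transcript length and GC content. ILC2 identity was checked on 13 markers, all present, of which 5 passed the test. Higher in SIRPα KO were Ptprc (0.90 on the log2 scale, adjusted p = 0.0484, edgeR), Il2ra (0.91, adjusted p = 0.0154, edgeR) and Il5 (0.49, adjusted p = 0.0138, edgeR). Lower were Id2 (-0.65, adjusted p = 0.0154, edgeR) and Thy1, at 12.1 to 23 CPM in WT and 3.64 to 4.16 CPM in SIRPα KO (-2.06, adjusted p = 0.0139, edgeR). Gata3 ranged from 846 to 1080 CPM and Il5, a signature cytokine, from 8450 to 13200 CPM. Mast cells and basophils also carry ST2, and Fcer1a and Ms4a2, which encode chains of their IgE receptor, had at most 13 and 9 reads in any library. Other markers of these cells were present and uneven, with Tpsb2 at 378, 21 and 10 reads in SIRPα KO replicates 1, 2 and 3. Cma1 had up to 466 reads, Mcpt8 up to 170 and Cpa3 up to 144, each in WT replicate 3. Of the 10 markers, Fcer1a, Ms4a2 and Mcpt4 had too few reads to be tested, and none of the others passed the test. The part of mast cells and basophils in the level of Il1rl1 was not tested. The summed level of their 10 markers was 117 to 145 CPM in WT and 168 to 235 CPM in SIRPα KO, and Kit alone gave 46.3 to 179 CPM of it. B cell markers differed, with a summed level of 216 to 479 CPM in WT and 23.1 to 84.6 CPM in SIRPα KO over 6 markers, 5 of them past an adjusted p of 0.05 by edgeR. T cell markers, 5 in the table, summed to 17.9 to 22.6 CPM in WT and 4.98 to 5.56 CPM in SIRPα KO. Cd3g alone gave 16.4 to 21.2 CPM in WT and 3.15 to 3.64 CPM in SIRPα KO (-2.45 on the log2 scale, adjusted p = 0.00375, edgeR). Cd3e did not pass the test (-0.33, adjusted p = 0.78, edgeR), and Cd4 had no reads in WT. NK cell markers, 3 in number, summed to 7.42 to 9.67 CPM in WT and 0.383 to 0.682 CPM in SIRPα KO, with Klrb1c and Eomes past the threshold (adjusted p = 0.03 and 0.0286, edgeR). Macrophage and myeloid markers, 9 in the table, summed to 50.6, 51.4 and 144 CPM in WT replicates 1, 2 and 3. In SIRPα KO they summed to 91.3 to 135 CPM, and only Itgam passed the test (2.55 on the log2 scale, adjusted p = 0.0454, edgeR). Lyz2 was at 21.1, 22.8 and 82.1 CPM in WT and 47.9 to 72.4 CPM in SIRPα KO. Within WT, Adgre1, Cd68, Itgax, Marco and Fcgr3 were also highest in replicate 3. Csf1r and Cd14 were lowest there, at 3.24 and 0.199 CPM, and Itgam was highest in replicate 2. The neutrophil marker Mpo had 166 reads in WT replicate 3 and 0 in every other library. S100a8, the only other neutrophil marker in the table, did not share this. It had 3, 4 and 3 reads in WT replicates 1, 2 and 3 and 0 to 9 in SIRPα KO. Eosinophil markers, 4 in number, summed to 1.64 to 4.9 CPM in WT and to 20.8, 3.57 and 3.47 CPM in SIRPα KO replicates 1, 2 and 3. Of the epithelial markers Epcam was lower in SIRPα KO (-1.18 on the log2 scale, adjusted p = 0.0354, edgeR), and Krt18 did not pass the test. Of the endothelial markers Pecam1 was higher (0.87, adjusted p = 0.0421, edgeR), and Kdr had too few reads to be tested. The part of these cell types in the results below was not tested. In bulk RNA, fewer cells of a type and less RNA per cell cannot be told apart. Sirpa itself had 149, 96 and 73 reads in WT replicates 1, 2 and 3 and 48, 85 and 28 in the SIRPα KO replicates, a difference of -1.12 on the log2 scale (standard error 0.42) with an adjusted p of 0.115 by edgeR's quasi-likelihood test. The groups did not overlap in CPM, but reads on Sirpa remained in every SIRPα KO library.

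None of the 10 members passed an adjusted p of 0.05 in edgeR's quasi-likelihood test across all genes, where 11.7% of all genes tested did. With the offset none passed either, where 8.85% of all genes did, and without WT replicate 3 Il1rl1 and Il1rap passed, where 18.4% of all genes did. Il1rl1, Il1rap and Map3k7 had an unadjusted p under 0.05, and all 3 were higher in SIRPα KO. That threshold was passed by 32% of all genes, 16.1% of all genes being higher. With libraries of one code summed the same 3 members had an unadjusted p under 0.05, where 23% of all genes did. By DESeq2 the same 3 members had an adjusted p under 0.05, where 24.4% of the genes with an adjusted p did. The groups did not overlap for 3 members that were higher in SIRPα KO, where 21.6% of all genes were of that kind, and for Myd88, Irak2 and Tab2, which were lower, where 21.2% of all genes were. The median log2 fold change of the members was 0.28, beside -0.03 over all genes. It was 0.11 without WT replicate 3 and 0.03 with the offset for length and GC content. The plot of CPM by library shows that WT replicate 3 set much of the WT spread for several members.

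**Figure D1:**
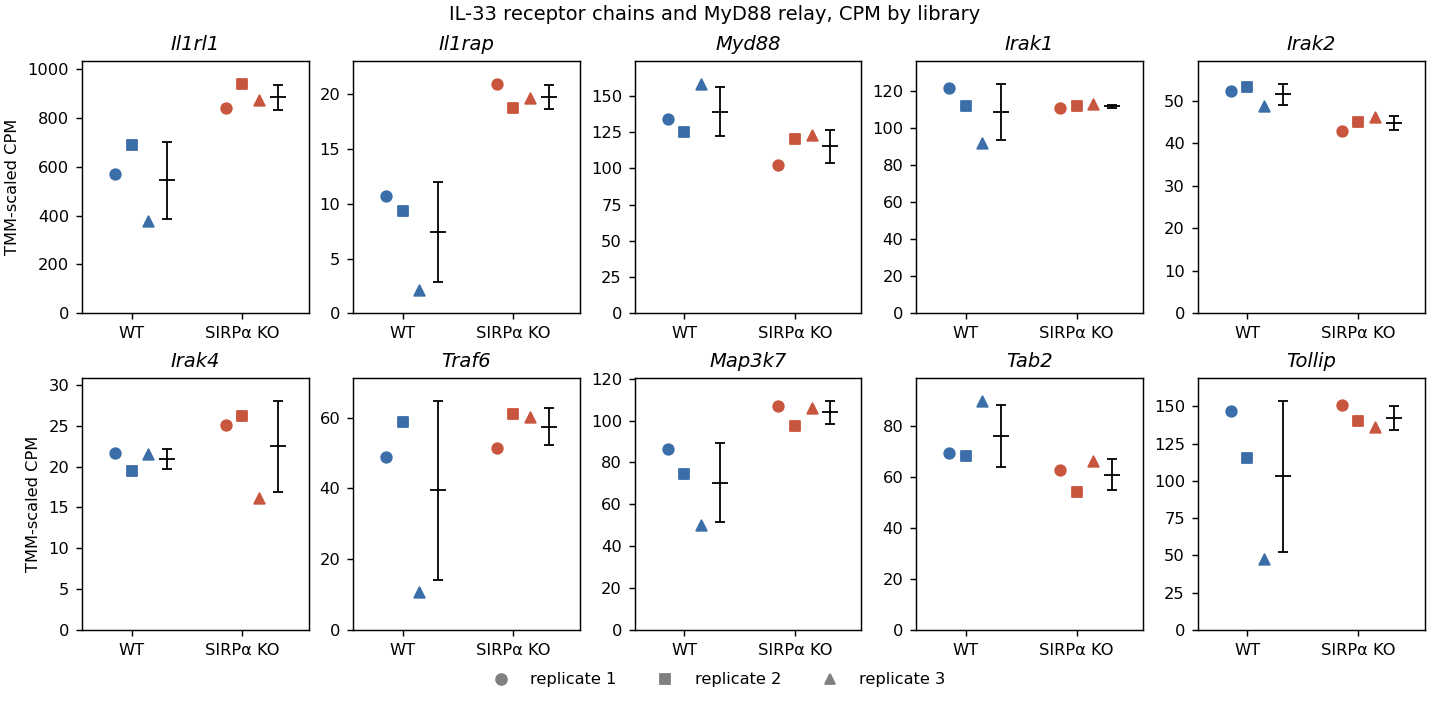
CPM (TMM-scaled counts, y axis from 0) of the 10 members in each library, by genotype (x axis). Symbols stand for replicates 1 to 3 and the black bar for the mean ± SD of 3 libraries. The triangle of WT replicate 3 lies below every other library for Il1rl1, Il1rap, Irak1, Traf6, Map3k7 and Tollip, and above every other for Myd88 and Tab2.

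Among the receptor chains, Il1rl1 was the most abundant member. It lies on chromosome 1 of mm10 from 40429570 to 40465415 on the plus strand, and it ranked 237th of 17831 genes by mean CPM in WT. Its level was 571, 686 and 376 CPM in WT replicates 1, 2 and 3 and 838, 937 and 873 CPM in SIRPα KO replicates 1, 2 and 3. The lowest SIRPα KO library exceeded the highest WT library. From a WT mean of 544 ± 157 CPM the level was 1.62 times as high by the fit in SIRPα KO, whose mean was 883 ± 50.3 CPM (SD, n = 3 each). On the log2 scale the fold change of Il1rl1 was 0.70 (standard error 0.20, 95% interval 0.24 to 1.16), with an adjusted p of 0.0599 by edgeR's quasi-likelihood test. Without WT replicate 3 it was 0.50 (adjusted p = 0.0141, edgeR), and with the offset for length and GC content 0.26 (adjusted p = 0.141, edgeR). With the offset and without WT replicate 3, a setting chosen after seeing the data, it was 0.18 (adjusted p = 0.198, edgeR). Il1rl1 falls in the ninth of 10 length deciles, where the median log2 fold change was 0.36. The annotation holds 5 Il1rl1 transcripts, from 375 to 5302 bases. Both a membrane receptor and a soluble decoy form of ST2 are made from this gene, and a count per gene cannot separate them.

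Il1rap, the signalling partner chain, had the largest log2 fold change of the members and the fewest reads. It lies on chromosome 16 from 26581704 to 26730117 of mm10. WT replicates 1, 2 and 3 had 186, 131 and 33 reads, or 10.7, 9.32 and 2.18 CPM, and the SIRPα KO replicates had 327, 356 and 316 reads, or 20.9, 18.7 and 19.6 CPM. The lowest SIRPα KO library was above the highest WT library, and the SIRPα KO libraries lay close together while WT replicate 3 was far below its group. The log2 fold change of Il1rap was 1.41 (standard error 0.49, 95% interval 0.28 to 2.55), with an adjusted p of 0.0961 by edgeR's quasi-likelihood test. Without WT replicate 3 the change was 0.98 (adjusted p = 0.0117, edgeR), and with the offset 1.07 (adjusted p = 0.138, edgeR). With the offset applied and WT replicate 3 left out, a setting chosen after seeing the data, it was 0.69 (adjusted p = 0.0487, edgeR). Il1rap was the only member past the threshold there, where 11.6% of all genes were. Of the exonic bases of Il1rap, 4.86% are shared with the antisense gene Gm20319, and whether strand was used in counting is not stated.

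The chains were far from equal in level. Per kilobase of the longest annotated transcript, Il1rap was 2.20%, 1.59% and 0.682% of Il1rl1 in WT replicates 1, 2 and 3, and 2.93%, 2.34% and 2.63% in the SIRPα KO replicates. The lowest SIRPα KO value was above the highest WT value, by little. Expressed the other way, WT libraries held 45.5, 62.8 and 147 times as much Il1rl1 as Il1rap per kilobase, and SIRPα KO libraries 34.2, 42.8 and 38.0 times as much.

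At the adaptor step, Myd88 was lower in the SIRPα KO libraries but did not pass the test. Its product couples the receptor to the IRAK kinases. Myd88 stood at 134, 125 and 158 CPM in WT against 102, 120 and 123 CPM in SIRPα KO. The highest SIRPα KO library was just below the lowest WT library. The log2 fold change was -0.27 (standard error 0.14, 95% interval -0.59 to 0.04), with an adjusted p of 0.209 by edgeR's quasi-likelihood test, and -0.16 both without WT replicate 3 and with the offset. Myd88 shares 11.3% of its exonic bases with Acaa1a on the opposite strand, so part of its reads could belong to that gene. Tollip, the inhibitory adaptor, stood at 147, 115 and 47.9 CPM in WT against 151, 140 and 136 CPM in SIRPα KO. Its groups overlapped, and the WT spread came from WT replicate 3. For Tollip the log2 fold change was 0.46 (standard error 0.35, 95% interval -0.34 to 1.25; adjusted p = 0.393, edgeR), and 0.12 without WT replicate 3.

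None of the 3 IRAK kinases among the members passed the test. Irak4, the kinase that starts the cascade, was at 21.7, 19.5 and 21.5 CPM in WT against 25.1, 26.2 and 16.1 CPM in SIRPα KO. SIRPα KO replicate 3 was the lowest of all 6 libraries and the other SIRPα KO libraries were the highest, so the groups overlapped. On the log2 scale it differed by 0.11 (standard error 0.22, 95% interval -0.41 to 0.62; adjusted p = 0.774, edgeR) and turned to -0.06 with the offset. Irak4 shares 7.87% of its exonic bases with Twf1 on the opposite strand.

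Irak1, which IRAK4 phosphorylates, was the steadiest member in SIRPα KO. It stood at 122, 112 and 92.3 CPM in WT against 111, 112 and 113 CPM in SIRPα KO, inside the WT range. Its log2 fold change was 0.05 (standard error 0.13, 95% interval -0.26 to 0.36; adjusted p = 0.827, edgeR), and its sign turned to -0.05 without WT replicate 3, with the offset or with upper quartile scaling. Irak2, the kinase that sustains late signalling, was at 52.4, 53.3 and 48.7 CPM in WT against 42.8, 45.1 and 46.1 CPM in SIRPα KO. The groups did not overlap, and the difference on the log2 scale was -0.20 (standard error 0.13, 95% interval -0.51 to 0.10; adjusted p = 0.314, edgeR). It was -0.24 without WT replicate 3 and -0.22 with the offset. A transcript of Gm7229 matches 20.2% of the longest Irak2 transcript at 95.8% identity, and how reads on such copies were counted is not stated.

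At the step from TRAF6 to TAK1, WT replicate 3 again lay apart from the other WT libraries, most of all for Traf6. Traf6, the ubiquitin ligase, was at 48.8, 58.8 and 10.9 CPM in WT against 51.5, 61.0 and 60.2 CPM in SIRPα KO. WT replicates 1 and 2 lay within or near the SIRPα KO range, and WT replicate 3, with 165 reads, was 2.28 lower on the log2 scale than their mean. With all libraries Traf6 had a log2 fold change of 0.54 (standard error 0.50, 95% interval -0.61 to 1.70; adjusted p = 0.482, edgeR), and 0.11 without WT replicate 3. With the offset and without that library its sign turned, to -0.21.

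Map3k7, which encodes TAK1, was at 86.6, 74.7 and 50 CPM in WT against 107, 97.3 and 106 CPM in SIRPα KO. The groups did not overlap, with means of 70.4 ± 18.7 CPM for WT and 104 ± 5.48 CPM for SIRPα KO (SD, n = 3 each). Map3k7 had a log2 fold change of 0.56 (standard error 0.20, 95% interval 0.09 to 1.02), or 1.47-fold, with an adjusted p of 0.104 by edgeR's quasi-likelihood test. It was 0.37 without WT replicate 3 (adjusted p = 0.0505, edgeR) and 0.11 with the offset (adjusted p = 0.593, edgeR). Like Il1rl1 and Traf6, Map3k7 lies in the ninth length decile, with its median of 0.36, and a transcript of Gm8188 matches 9.16% of its longest transcript at 97.0% identity. Tab2, the ubiquitin-binding partner of TAK1, went the other way, at 69.7, 68.5 and 90.1 CPM in WT against 62.8, 54.3 and 66.4 CPM in SIRPα KO. No SIRPα KO library reached a WT library. Tab2 had a log2 fold change of -0.32 (standard error 0.16, 95% interval -0.68 to 0.05; adjusted p = 0.212, edgeR), and -0.17 without WT replicate 3. With the offset it was -0.64 (adjusted p = 0.113, edgeR). Genes in its length decile had a positive median of 0.21, and the offset takes the trend with length and GC content out of the value.

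**Figure D2:**
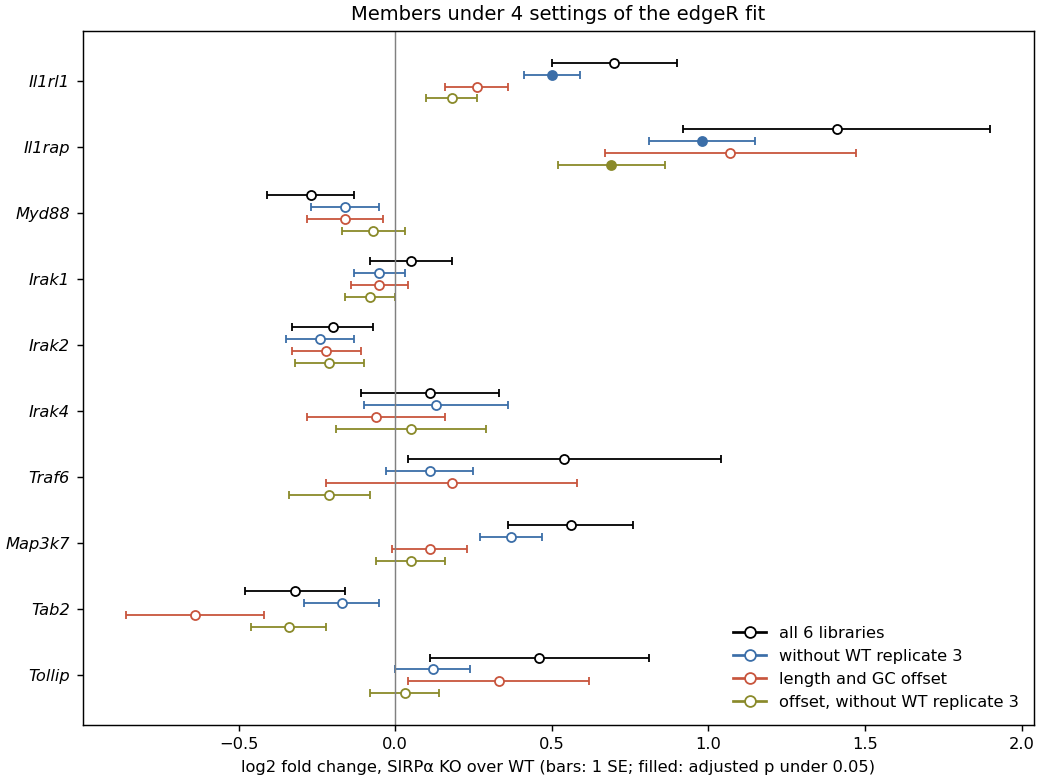
Log2 fold change of each member, SIRPα KO over WT (x axis), under 4 settings of the edgeR fit, with bars of 1 standard error; filled points have an adjusted p under 0.05. Il1rl1 goes from 0.70 with all libraries to 0.26 with the offset for length and GC content. With the offset and without WT replicate 3 it is at 0.18. Il1rap stays between 0.69 and 1.41.

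Across members, the position of WT replicate 3 varied more than transcript length alone describes. Relative to the mean of WT replicates 1 and 2 its log2 CPM differed by -2.28 for Traf6, -2.13 for Il1rap and -1.44 for Tollip, and by -0.74 for Il1rl1, -0.68 for Map3k7 and -0.34 for Irak1. It differed by 0.38 for Tab2 and 0.29 for Myd88. The median in the length deciles of these genes was between -0.48 and -0.02. Traf6, Il1rap and Tollip were thus much further below than genes of like length, and Tab2 was above zero in a decile with a median of -0.30.

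**Figure D3:**
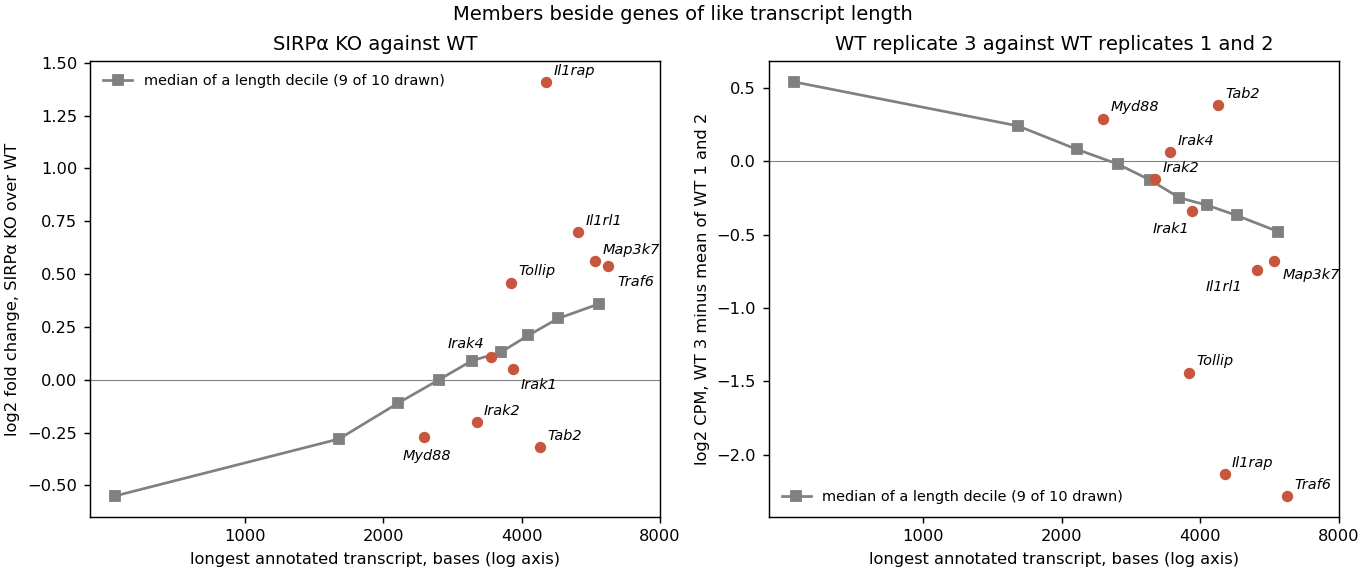
Members (red points) beside the median of genes in deciles of transcript length (grey squares, 9 of the 10 deciles drawn), against the length of the longest annotated transcript in bases (log axis). The left panel shows log2 fold change, SIRPα KO over WT, and the right panel log2 CPM of WT replicate 3 minus the mean of WT replicates 1 and 2; Il1rap at 1.41 lies far above its decile's median of 0.29 on the left, and Traf6, Il1rap and Tollip lie far below theirs on the right.

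Levels between members were compared as CPM per kilobase of the longest annotated transcript. In WT the order was Il1rl1 at 103 ± 29.6, Myd88 at 56.5 ± 6.91, Irak1 at 28.3 ± 3.91, Tollip at 27.3 ± 13.4, Tab2 at 17.4 ± 2.78, Irak2 at 16.1 ± 0.767, Map3k7 at 12.2 ± 3.23, Traf6 at 6.41 ± 4.09, Irak4 at 6.07 ± 0.351 and Il1rap at 1.64 ± 1.01 (SD, n = 3). The mean ± SD ranges in WT overlapped for Irak1 and Tollip, Tollip and Tab2, and Tab2 and Irak2. They also overlapped for Irak2 and Map3k7, Map3k7 and Traf6, and Traf6 and Irak4. All these genes were measured in the same libraries, and the order within each library was not tested. In SIRPα KO Il1rl1 was again first, at 166 ± 9.49, followed by Myd88 at 46.7 ± 4.66 and Tollip at 37.5 ± 2.09, and Il1rap was again last, at 4.36 ± 0.247. The order in the middle depends on the transcript length chosen. With the median annotated length Irak1 stood second in WT, at 135 CPM per kilobase, ahead of Map3k7 at 81.4, Irak2 at 74.8 and Myd88 at 70.8, and Il1rl1 at 205 kept the first place.

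The pattern of Il1rl1 over the 6 libraries was shared by many genes. Among 9059 genes compared, Fastkd2 (Pearson's r rounding to 1) and Spata5 (0.998) were among those whose log2 CPM was most like it, and 824 genes had an r above 0.95. These 6 points share the low value of WT replicate 3, and r is given as a description only.

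The wider pathway was described through a list of 80 genes, of which 72 were in the table and 64 were tested. Of these, 3 rose, 5 fell and 56 did not pass an adjusted p of 0.05 by edgeR, beside 5.94% of all genes that rose and 5.81% that fell. The split turned with the setting, to 9 of 14 called genes higher with DESeq2 and 7 of 14 without WT replicate 3. The median log2 fold change of the list was 0.08. By role, 3 of 5 tested sister receptors and decoys fell and none rose. Of 15 kinase and TRAF partners 1 rose, of 12 Toll-like receptors and adaptors 1 rose, of 9 TAK1 complex and ubiquitin genes 1 fell, and of 19 negative regulators 1 rose and 1 fell. No ligand or soluble antagonist of the 4 tested passed. When libraries with one code were summed, none of the 8 was past the threshold, where 0.0686% of all genes were. Without any one SIRPα KO library, only Il1r2 was, where 0.112% to 0.12% of all genes were. The signs of all 8 held in every setting tried.

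**Figure D4:**
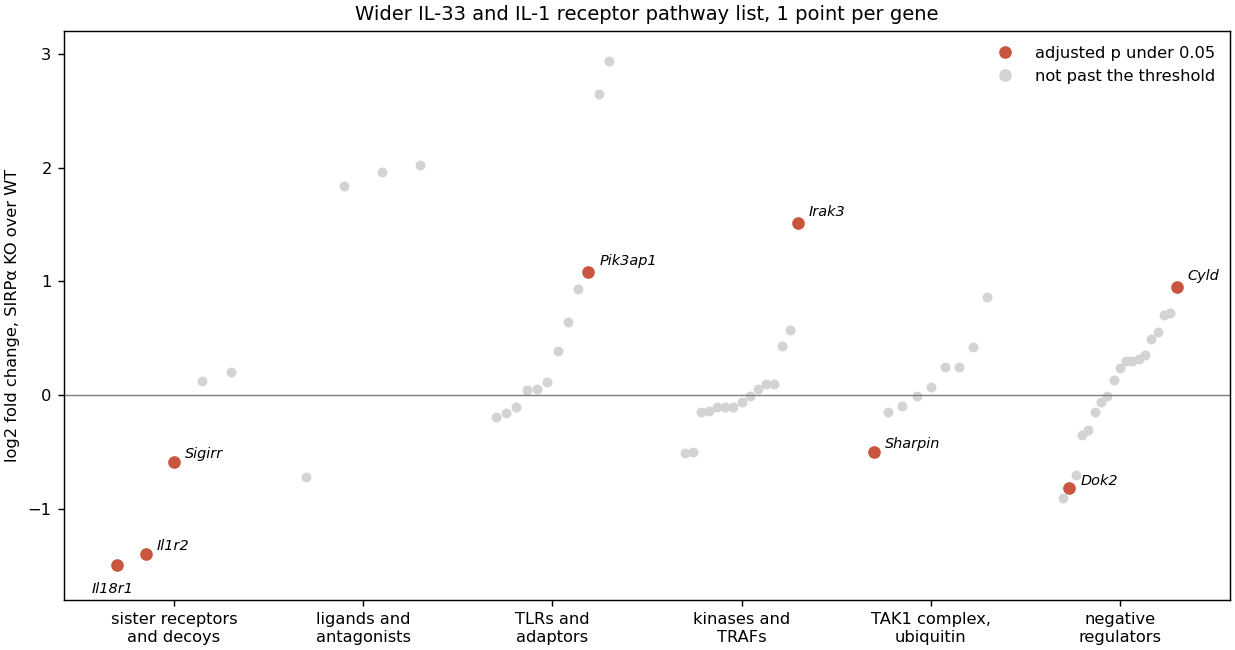
Log2 fold change, SIRPα KO over WT (y axis), of the 64 tested genes of the wider list, 1 point per gene, ordered by value within each role (x axis). The 8 genes past an adjusted p of 0.05 are red and named, with Irak3 at 1.51 and Il18r1 at -1.5 as the furthest from zero among them.

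Irak3 encodes IRAK-M, which is known mainly for restraining signals from MyD88, and it rose. It was at 92.5, 83.2 and 60.7 CPM in WT against 244, 219 and 212 CPM in SIRPα KO. The lowest SIRPα KO library was far above the highest WT library. Irak3 rose 2.85-fold, or by 1.51 on the log2 scale (standard error 0.17), with an adjusted p of 0.00732 by edgeR's quasi-likelihood test. It was 1.36 without WT replicate 3 (adjusted p = 0.000979, edgeR) and 1.42 with the offset (adjusted p = 0.00263, edgeR). Without SIRPα KO replicate 1, 2 or 3 the adjusted p of Irak3 was 0.0700, 0.0699 and 0.0532 by edgeR, and 0.130 with libraries of one code summed. Irak3 shares 5.22% of its exonic bases with Tmbim4 on the opposite strand.

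The make-up of the IRAK family differed accordingly. Per kilobase, Irak3 was 35.4%, 34.3% and 30.1% of the sum of the 4 IRAK genes in WT and 61.3%, 58.1% and 58.4% in SIRPα KO. Irak3 stood just below Irak1 in WT, at 0.941, 0.920 and 0.815 times its level per kilobase, and above it in SIRPα KO, at 2.71, 2.41 and 2.32 times. That crossing rests on the longest transcripts. With the median annotated length, a setting chosen after seeing the data, Irak3 was below Irak1 in every library, at 0.246, 0.241 and 0.213 times its level in WT and 0.709, 0.632 and 0.607 times in SIRPα KO, and its share of the sum was 11.3% to 13.7% in WT and 28.6% to 31.9% in SIRPα KO. The ratio was higher in SIRPα KO with either length. Because shares sum to a whole, the share of Irak1 was 37.3 ± 0.354% in WT and 24 ± 1.31% in SIRPα KO while its own level per kilobase was 28.3 ± 3.91 and 29.3 ± 0.227 (SD, n = 3).

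**Figure D5:**
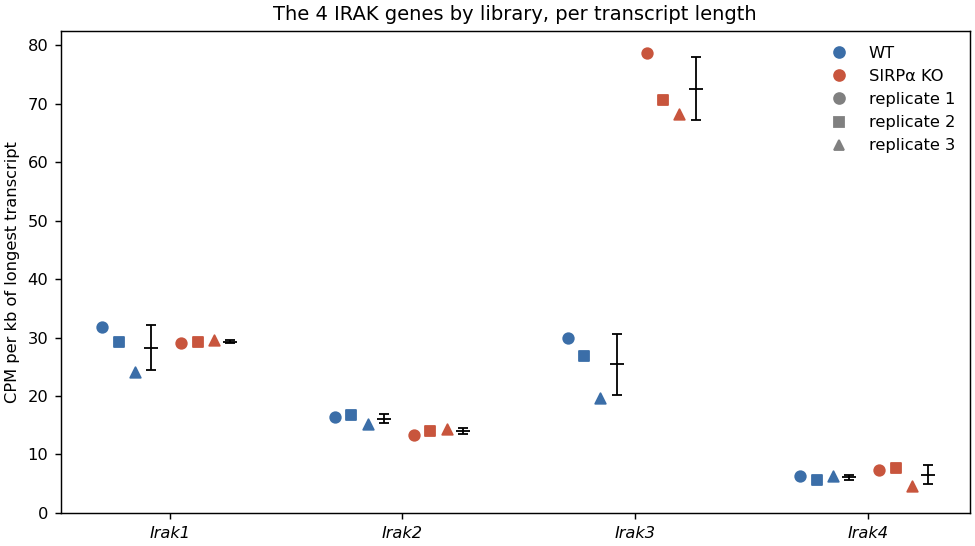
CPM per kilobase of the longest annotated transcript (y axis from 0) of the 4 IRAK genes (x axis) in each library, with the mean ± SD of 3 libraries as black bars. Irak3 lies between 68.3 and 78.7 in SIRPα KO and between 19.6 and 29.9 in WT, and the other IRAK genes lie between 4.67 and 31.8 over all libraries.

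The other genes that rose were Pik3ap1, an adaptor that links Toll-like receptors to PI3 kinase, and Cyld, a deubiquitinase that removes the chains TRAF6 builds. Pik3ap1 was at 35.1, 36.6 and 26.9 CPM in WT against 63.8, 73.9 and 71.2 CPM in SIRPα KO, which is 1.08 higher on the log2 scale (standard error 0.17; adjusted p = 0.0143, edgeR), and 0.88 with the offset (adjusted p = 0.00945, edgeR). Cyld was at 80.0, 87.1 and 47.4 CPM in WT against 150, 134 and 131 CPM in SIRPα KO, which is 0.95 higher (standard error 0.22; adjusted p = 0.0353, edgeR). Both were higher in every SIRPα KO library than in any WT library. With the offset Cyld was at 0.41 and no longer past the threshold (adjusted p = 0.0702, edgeR), and its longest transcript has 8022 bases.

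Among the sister receptors, those that passed fell. Il1r2, a decoy that binds IL-1 without signalling and also pairs with the accessory protein, was at 259, 233 and 264 CPM in WT against 94.0, 95.8 and 96.8 CPM in SIRPα KO. The groups were far apart and each was tight. Il1r2 was 2.64-fold lower in SIRPα KO, at -1.40 on the log2 scale (standard error 0.11, adjusted p = 0.00125, edgeR) and at -1.14 with the offset (adjusted p = 0.00189, edgeR). Il18r1, the binding chain of the IL-18 receptor, was at 14.2, 16.6 and 21.2 CPM in WT against 5.05, 5.61 and 7.69 CPM in SIRPα KO. It was 2.83-fold lower, at -1.5 on the log2 scale (standard error 0.26, adjusted p = 0.0184, edgeR) and at -1.91 with the offset (adjusted p = 0.0169, edgeR). T and NK cells also carry this receptor, their summed markers were lower in SIRPα KO as given above, and their part in the value of Il18r1 was not tested. Sigirr, an inhibitory member of the family that restrains ST2 signalling, was at 141, 148 and 165 CPM in WT against 94.4, 111 and 96.9 CPM in SIRPα KO. Sigirr was at -0.59 on the log2 scale (standard error 0.12, adjusted p = 0.0276, edgeR), and with the offset -0.27 (adjusted p = 0.158, edgeR).

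Il1r2 and Il18r1 are neighbours of Il1rl1. On the plus strand of chromosome 1 in mm10, from 40074079 to 40551705, stand in order Il1r2, Il1r1, Il1rl2, Il1rl1, Il18r1 and Il18rap, and Il18r1 begins 136 bases after Il1rl1 ends. The log2 fold changes along this stretch were -1.40 for Il1r2, 0.12 for Il1rl2, 0.70 for Il1rl1, -1.5 for Il18r1 and 0.20 for Il18rap. Il18rap, the partner chain of the IL-18 receptor, was at 130 ± 18.6 CPM in WT against 150 ± 9.45 CPM in SIRPα KO (SD, n = 3; adjusted p = 0.341, edgeR). With the offset the values were -1.14 for Il1r2, -0.19 for Il1rl2, 0.26 for Il1rl1, -1.91 for Il18r1 and -0.20 for Il18rap, so the signs of Il1rl2 and Il18rap, neither of which passed the test, depended on it. Il1r1, the signalling receptor of IL-1, had at most 10 reads in any library and was not tested.

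Dok2, an adaptor that dampens signalling from several receptors, fell by 0.82 on the log2 scale (standard error 0.13, adjusted p = 0.0149, edgeR), from 289 ± 36.7 CPM in WT to 163 ± 13.1 CPM in SIRPα KO (SD, n = 3). Sharpin, a subunit of the linear ubiquitin ligase complex, fell by 0.50 (standard error 0.13, adjusted p = 0.0497, edgeR), from 58.4 ± 4.05 to 41.2 ± 1.89 CPM. With the offset the log2 fold changes were -0.44 for Dok2 (adjusted p = 0.0524, edgeR) and -0.22 for Sharpin (adjusted p = 0.335, edgeR), and neither was past the threshold. With that offset 2 other genes of the list were, Map3k1 at -0.90 (adjusted p = 0.0293, edgeR) and Tnip1 at 0.45 (adjusted p = 0.0295, edgeR), both named after their values were seen.

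Abundant genes of the wider list that did not pass the test gave the background of the relay. Ube2v1, a subunit of the ubiquitin-conjugating pair that TRAF6 uses, was at 320 ± 25.2 CPM in WT against 289 ± 14.5 CPM in SIRPα KO, and Rbck1, of the linear ubiquitin ligase, at 190 ± 7.55 and 200 ± 10.4 CPM. Mapkapk2, a kinase downstream of p38, was at 269 ± 70.3 and 249 ± 80.6 CPM, and Traf1, a regulatory TRAF protein, at 251 ± 29.0 and 232 ± 14 CPM. Usp4, a deubiquitinase, was at 209 ± 40.8 and 256 ± 17.2 CPM, and Ly96, the co-receptor of TLR4, at 18.7 ± 1.93 and 16.8 ± 0.418 CPM (SD, n = 3 for each). Among the ligands and antagonists, Il1b and Il1rn were the most abundant per kilobase by the mean over both genotypes, and both were low, Il1b at 1.08 ± 0.787 CPM in WT against 4.36 ± 2.23 CPM in SIRPα KO, and Il1rn, the IL-1 receptor antagonist, at 2.41 ± 1.6 and 9.37 ± 5.62 CPM. Their adjusted p values were 0.113 and 0.0967 by edgeR. In WT alone Il18bp, which encodes a soluble antagonist of IL-18, was higher than both, at 3.53 ± 1.15 CPM against 2.15 ± 0.637 CPM in SIRPα KO. Il33 itself had 0 reads in the WT libraries and at most 13 in a SIRPα KO library, and was not tested.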

How the data were processed

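Bulk RNAseq of cultured lung ILC2s was analysed in 3 WT and 3 SIRPα KO libraries. An ultra-low-input kit turned 10 pg of RNA into cDNA. Per the submitters' processing notes, reads were handled in Partek 10.0 and aligned with STAR 2.7.8 to mm10, and the authors deposited estimated counts per gene, not scaled for library size. Whether strand was used, and how reads on repeated genes were counted, is not given in the sources used here. In the record of columns 139 gene columns are listed by name, and the other 17692 hold the same unit. Other data of the paper were not analysed here.

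Estimated counts were rounded to whole numbers, filtered with filterByExpr of edgeR (minimum count 10, minimum total 15), scaled by TMM and compared by genotype alone with edgeR's quasi-likelihood test, with Benjamini-Hochberg adjustment over 13623 genes and a threshold of 0.05. Standard errors come from its F statistic. The 10 members and all gene lists were chosen with earlier results of these data known, and so was the length and GC offset, which fitted splines (5 degrees of freedom each) per library over 9062 genes with a mean log2 CPM of at least 3. Named genes are the members, wider-list genes past the threshold, the 2 most abundant genes of each role, the 3 most like Il1rl1 (1 of them is not reported here) and Sirpa; any other is a marker, a neighbour of Il1rl1, or a gene named after its value was seen. GENCODE M21 held 17400 of the symbols, a synonym gave 188 more, and 243 had no match. Promoters were matched in RefSeq for 10 of 10 members. Near copies were sought with BLAST+ 2.17.0 at 95% identity or more. Genes of the wider list outside the table were not analysed here. R 4.3.3, edgeR 4.0.16, limma 3.58.1, DESeq2 1.42.0, Python 3.11.15 and matplotlib 3.10.9 were used. The fits were also run on simulated counts. Those had the same dispersion for every gene, no library set apart like WT replicate 3 and no related libraries, so they do not cover these features of the data.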

Additional observations from a re-analysis of the deposited data

How the results depend on the processing

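Myd88, Irak2 and Tab2 kept their negative sign, and Il1rl1, Il1rap, Map3k7 and Tollip their positive sign, in every alternative. Some of these values were near zero. With the offset and without WT replicate 3, Map3k7 was at 0.05, Tollip at 0.03 and Myd88 at -0.07 (standard errors 0.11, 0.11 and 0.10), and Il1rl1 was at 0.18. Il1rl1, not past the threshold in the main comparison, was past it with DESeq2 (log2 fold change 0.72, adjusted p = 0.00955) and with a filter of at least 1 CPM in 3 libraries (0.69, adjusted p = 0.0486, edgeR). DESeq2 also called Il1rap (1.44) and Map3k7 (0.58). Leaving out 1 library in turn gave 0.50 to 0.90 for Il1rl1, 0.98 to 1.78 for Il1rap, -0.05 to 0.14 for Irak1 and -0.01 to 0.31 for Irak4. Irak1 turned to -0.05 with upper quartile scaling (median of all genes -0.125, beside -0.03), and to -0.05 with the length and GC offset. Irak4 turned to -0.06 with that offset. With the offset and without WT replicate 3, a setting added after seeing the data, Irak1 was at -0.08, Traf6 at -0.21 and Il1rap, now called, at 0.69. The cause of these turns was not tested. The number of members past the threshold, 0 in the main comparison, was 3 with DESeq2 (where 24.4% of the genes with an adjusted p were). It was 1 with the filter at 1 CPM (where 13.7% of all genes were) and 1 with the offset and without WT replicate 3 (11.6%). When 1 library was left out it was 0 to 2, with 1 without WT replicate 2 (16.3%) and 2 without WT replicate 3 (18.4%). For the wider list the number, 8 in the main comparison, was 14 with DESeq2 (9 higher, beside 3 of 8), 0 with libraries of one code summed, and 1 to 14 when 1 library was left out, 14 without WT replicate 3 (7 higher) and 1 without any of the SIRPα KO replicates. Over all genes 1600 were called, beside 3170 with DESeq2, 364 with the offset and the block, 10 with codes summed, 2606 without WT replicate 3 and 16 or 17 without a SIRPα KO replicate.

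Deviations of samples with the same replicate number had correlations of -0.14, 0.19 and 0.05, beside -0.28 to 0.22 for samples with different numbers. Each deviation was taken from a mean of 3 libraries that includes the library itself, so this check cannot show whether the numbers pair libraries. With the replicate block Il1rl1 was at 0.74 (adjusted p = 0.0468, edgeR), and 1 member was past the threshold, where 8.21% of all genes were. The adjusted p of Il1rl1 by edgeR was 0.135 with the block and the offset and 0.160 with libraries of one code summed. With the block and the offset, Irak1 was at -0.05, Irak4 at -0.09, and 4 genes of the wider list were called, where 2.67% of all genes were. With 3 libraries a group, 33 to 186 reads on Il1rap in WT and possible pairs from one sample, small differences were not detectable here.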
